A study of Microtus ochrogaster with 23 samples.

Results

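In the dentate gyrus of 23 prairie voles, 602 CpG cytosines were close to unmethylated in some animals and close to fully methylated in others. They were chosen from the levels themselves. A cytosine off chromosome X was covered if 18 or more animals had at least 20 reads, and it was kept if, among the animals with at least 20 reads, at least 4 had a methylation level of at most 10% (low animals) and at least 4 had a level of at least 90% (high animals). Of 4051749 cytosines read in any animal, 750839 were covered, and the 602 are 0.0802% of these. They are called both-end CpGs below. Animals between the ends are called middle animals. The levels that chose the CpGs are given as a description, without a test.

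The voles were wild-type adults from a laboratory colony, all tested with an unfamiliar pup before the tissue was taken. The 6 “Attacker” and the 6 “Parental” animals were virgin males, separated by whether they attacked the pup or cared for it. The 5 “Father” and 6 “Mother” animals were pair-bonded males and females with young. Each animal gave 1 library from punches of the dentate gyrus, so that neurons, glia and other cells were read together. Kinship between the animals was not given in the sources used here. The measurement was reduced representation bisulfite sequencing (RRBS), which reads fragments cut out by the enzyme MspI and so covers CpG-rich DNA deeply. Libraries held 64896224 to 129376223 calls, with a median depth of 19 to 43 reads at a cytosine. The share of methylated calls ranged from 8.34% in “Attacker” replicate 1 to 38.7% in “Attacker” replicate 6.

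A CpG is a cytosine followed by a guanine, and most DNA methylation of mammals is found there. On 1 DNA molecule a cytosine is methylated or it is not, so a level between the ends is a mixture of molecules, from different cells or from the maternal and the paternal copy. Imprinted regions, where the parental copies differ, are the classical case of a level near the middle. CpG islands at promoters are mostly unmethylated and the remaining genome is mostly methylated, in brain as elsewhere, and neighbouring CpGs tend to share their state. Bisulfite converts unmethylated cytosine to a base read as T, and a T in the DNA of the animal is read in the same way. Genotypes were not measured here, and their part in these levels was not tested.

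The levels were less divided than the selection would allow. Over the 602 CpGs, 12005 levels had at least 20 reads, and 27.01% were low, 46.3% were middle and 26.7% were high. At the other covered CpGs 86.8% of levels were low, 11.1% middle and 2.12% high. A both-end CpG had a median of 9 middle animals (range 1 to 15), and only 10 of the 602 had at most 3. The word all-or-none therefore describes the ends by which they were chosen and not the animals as a whole. More low than high animals were found at 235 of the CpGs, more high than low at 230, and equal numbers at 137.

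**Figure D1:**
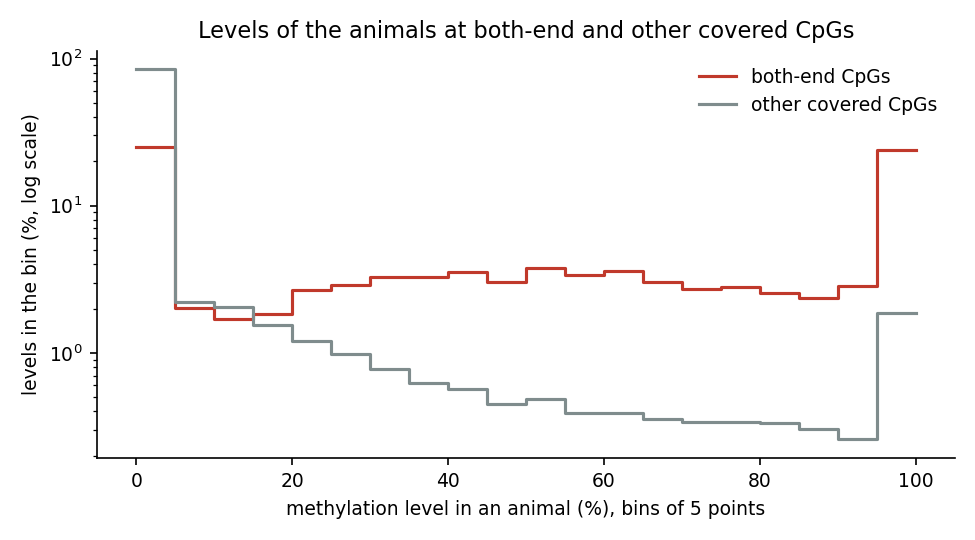
Share of the levels (y axis, %, log scale) in bins of 5 points of methylation level (x axis, %) at the 602 both-end CpGs and at the other covered CpGs. Both-end CpGs have peaks at either end, which the selection requires, and a broad plateau between them, with 46.3% of levels between the ends.

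Middle levels were spread over the whole range. In steps of 10 points from 10% to 90% they numbered 418, 664, 787, 791, 856, 797, 663 and 585. Levels of 40% to 60% made up 30.3% of the 5561 middle levels (24.04% to 38.7% in single animals), against 17.5% at the other covered CpGs. The Wilson 95% interval of a middle level held 50% in 38.6% of cases, and in 29.3% of the 3534 with 50 reads or more. Only 1 CpG had middle animals whose intervals all held 50%, and 22 had at least 75% of them there. The levels as read were thus not limited to 3 discrete values of none, 50% and full methylation at most of these CpGs. The intervals cover counting error only, and scatter from few DNA molecules was not tested. At the ends the levels were extreme. No methylated read was found in 79.1% of low levels, and every read was methylated in 75.3% of high levels, against 70.1% and 69.5% at the other covered CpGs with a mean level of 20% to 80%. Such a level still has an interval, and 0 of 20 reads allows up to 16.1%.

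Membership depended on depth and on the thresholds. Most of the 602 lay just inside the rule, with 430 having exactly 4 animals at the smaller end, 118 having 5, and 54 having 6 or more (8 at most). Just outside it, 1373 covered cytosines had 3 animals at the smaller end, with a median of 61.1% middle animals against 52.4% in the members with 4. With at least 10 reads in place of 20, 9138 cytosines met the rule, and with at least 30 reads 152 did. The minimum also sets which cytosines count as covered, so these counts do not share 1 set of covered cytosines. Among covered cytosines with a mean level of 20% to 80%, 1.25% of 48147 were members. This share was 3.42% where the median depth was under 30 reads, 1.78% from 30 to 50, 0.846% from 50 to 100 and 0.625% from 100 reads. Within members, middle animals were read more deeply than low animals at 438 of 602 CpGs after scaling by the depth of the library (median ratio 1.30), while the median ratio of high to low animals was 0.985. Reads carried no molecular identifiers, so the number of DNA molecules behind them is unknown and intervals cover counting error only.

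Both-end CpGs lay on all 27 autosomes and linkage groups of MicOch1.0 and on 76 unplaced scaffolds, which held 29.9% of them and 26.9% of covered cytosines. Of the 422 on placed chromosomes, 46.7% fell within the span of a gene, against 65.8% of covered cytosines and 51.2% of those with a mean level of 20% to 80%. They had a median of 5 read CpG cytosines within 100 bp, against 28 for covered cytosines and 7 for those with a mean level of 20% to 80%. They were thus in CpG-poor DNA relative to what RRBS mostly reads, and close to other CpGs of intermediate mean level in this respect. Genes spanning a both-end CpG numbered 182, of which 170 have a symbol other than a LOC number. Exons and promoters could not be assigned, because the gene table gives the start and end of a gene only.

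Genes were named by the fewest middle animals at a CpG in their span, one CpG a gene. In Lsr, a lipoprotein receptor of tricellular junctions, the CpG at position 21493371 of LG4 had no methylated read in 12 animals, every read methylated in 4, and middle levels in the other two, with 5 of 23 and 17 of 34 methylated reads. The high animals were “Attacker” replicate 5, “Parental” replicate 4, “Father” replicate 3 and “Mother” replicate 5, so each group had 1. St6gal1 and St3gal4 encode sialyltransferases, which add sialic acid to the sugar chains of proteins and lipids. The CpG in St6gal1 (chromosome 2, 33060472) was at 100% in all 5 “Attacker” animals read and at 37.5% to 100% in 5 “Parental” animals, while 3 “Father” animals had 0%, 6.06% and 100%. In “Mother” it was 0% in 3 animals and 100% in 2, so the group overlapped the others. In St3gal4 (chromosome 5, 29206538) 12 animals were low and 4 were high, and the high ones were “Attacker” replicate 1, “Parental” replicate 3 and “Mother” replicates 1 and 2.

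Catspere, a subunit of the calcium channel of sperm, had a CpG (chromosome 6, 86383275) at 100% in all 5 “Father” animals, with 40 to 84 reads each. The other groups reached from 0% to 100% there. Adcy6, an adenylyl cyclase that makes cyclic AMP, had 6 low and 8 high animals (chromosome 15, 6164209). Rgs10, which shortens the signal of G proteins, had 6 low and 7 high animals (chromosome 8, 21155458). Sulf1, an enzyme that removes sulfate from heparan sulfate, had 8 low and 5 high animals (LG5, 14840999), although the cytosines within 50 bp had a mean level of 95.9%.

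The remaining genes of this kind were Stox2, Atg2b, Foxo6 and Rin3. Stox2, of the storkhead box family, had 11 low, 4 middle and 6 high animals (LG7_11, 20522679). Atg2b, which moves lipids to the growing autophagosome, had 4 low and 10 high animals (chromosome 1, 40994118). Foxo6, a forkhead transcription factor, had 10 low and 4 high animals (chromosome 10, 62738555). Rin3 activates Rab5 in endocytosis and had 9 low and 6 high animals (chromosome 1, 38103962). Its CpG was at 0% in 4 of 5 “Father” animals and at 74.1% in the other one, while “Mother” animals lay at 0%, 35.5% and 100% (3 animals). At each of the genes described, low and high animals occurred together within at least 1 group.

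The both-end CpGs were also counted by gene list. Over all genes with a covered cytosine in their span or up to 2 kb from it, 203 of 11438 (1.77%) had a both-end CpG. The Wnt list had 2 of 61 genes, imprinted genes 2 of 31, glutamate and GABA receptors with their scaffolds 2 of 42, dentate gyrus markers 2 of 25, and protocadherins and adhesion genes 1 of 30. Receptors and peptides of social behaviour had 0 of 28, and genes of DNA methylation and chromatin 0 of 39. The shares of the lists run from 0% to 8.0% on counts of 0 to 2 and were not tested against the 1.77% over all genes. The median number of covered cytosines per gene was 20.5 to 72 in the lists and 40 over all genes. Dkk3, Fzd10 and Enpp2, the genes that the study names for methylation, had 0 both-end CpGs among 32, 115 and 70 covered cytosines. The share over all covered cytosines was 0.0802%, so a count of 0 among so few does not set these genes apart.

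Of the Wnt genes, Wnt8a is a ligand and Lgr6 a receptor of R-spondins, which strengthen Wnt signals. The CpG 1649 bp from Wnt8a (chromosome 18, 23047765) had 5 low, 9 middle and 4 high animals, and the one in Lgr6 (chromosome 6, 25641621) had 6, 12 and 4. Kcnq1, a potassium channel in an imprinted domain, had 5 low, 12 middle and 4 high animals (chromosome 8, 35905375). Its middle levels ran from 16.2% to 76.7%. Trappc9, a trafficking gene imprinted in mouse brain, had 5 low, 6 middle and 8 high animals (chromosome 15, 31261877), with a neighbouring CpG at a mean of 97.5%.

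Among the synaptic genes, Gabrg3 encodes a subunit of the GABA-A receptor, and its CpG (chromosome 22, 30201284) had 4 low, 12 middle and 5 high animals. “Attacker” animals lay lowest, from 0% over a median of 14.1% to 35.3%, and “Parental” animals from 18.2% over 67.7% to 100%, so the groups overlapped. In Camk2a, the kinase of synaptic plasticity, 4 animals were low and 4 high at a CpG (chromosome 18, 46752658) whose neighbour had a mean level of 12.1%. Cntnap4, a neurexin-like adhesion protein of interneurons, had 6 low and 5 high animals (chromosome 4, 21088992). Of the dentate gyrus markers, Maml2, a coactivator of Notch, had 8 low and 6 high animals (chromosome 5, 8419463), and Eomes, the transcription factor of intermediate progenitors, had 4 low and 6 high animals (chromosome 5, 90523425). At Maml2 the “Attacker” animals lay between 0% and 21.4% and “Mother” animals between 7.53% and 100%.

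The cytosine on the opposite strand of a CpG is covered by other reads, and maintenance methylation copies the mark between strands. Only 184 of the 602 had any read at the position directly before or after, and 17 had at least 20 reads there in 4 low and 4 high animals (18 pairs). The mean level on the other strand was higher in high than in low animals in all 18 pairs, by 4.66 to 98.4 points (median 55.9). The difference exceeded 50 points in 9 of the 18 pairs. Where the partner was itself a member (4 members), the pair was counted from each side, here and with pooled reads. The pairs are thus not independent, and no interval is given. In Abcg8, a sterol transporter, both cytosines were members (chromosome 16, 7644119 and 7644120). Read from the first, the other strand had a mean level of 6.32% in low and 99.3% in high animals. By contrast, the cytosine next to the CpG in Zmiz1 (chromosome 6, 64422188) had 17.7% in low and 35.4% in high animals.

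With reads pooled over low and over high animals, and at least 10 reads at each end, more pairs could be compared. The other strand had a median of 23.3% in low and 79.9% in high animals, with a median difference of 45.2 points. The difference exceeded 50 points in 63 pairs (45.7%) and was below 0 in 19. The opposite strand thus moved by over 50 points with the both-end CpG at some sites and not at others. Where CpGs follow each other directly, a position 1 bp away may belong to the next CpG, and without the genome sequence this could not be told apart.

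Neighbouring CpGs can be covered by the same reads, and neighbours were taken without regard to strand. They are not independent of the member or of each other. A pair of members was counted from each side, so no interval is given. Within 2 to 50 bp, 864 cytosines at 404 of the 602 had enough reads. They were higher in high than in low animals by a median of 7.99 points, and 126 (14.6%) differed by over 50 points in the same direction. In 13 of them the difference was over 50 points in the opposite direction. At 94 of the 404 CpGs (23.3%) at least 1 neighbour moved by over 50 points, and at 39 all did. At 25.99% of the 404 every neighbour stayed within 10 points. The mean level of the neighbours was over 80% at 166 CpGs, 20% to 80% at 226 and under 20% at 12. With at least 30 reads as the minimum throughout, the share of neighbours over 50 points was 5.95%.

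The share of neighbours that differed by over 50 points was lower beyond 100 bp than within it. The difference exceeded 50 points in 19.2% of 224 neighbours at 2 to 10 bp, in 16.5% of 297 at 11 to 25 bp, in 9.91% of 343 at 26 to 50 bp and in 11.6% of 275 at 51 to 100 bp. Over 100 and up to 200 bp the share was 1.389% of 216, and beyond that up to 500 bp it was 0.179% of 558. Reads were 100 bp long.

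**Figure D2:**
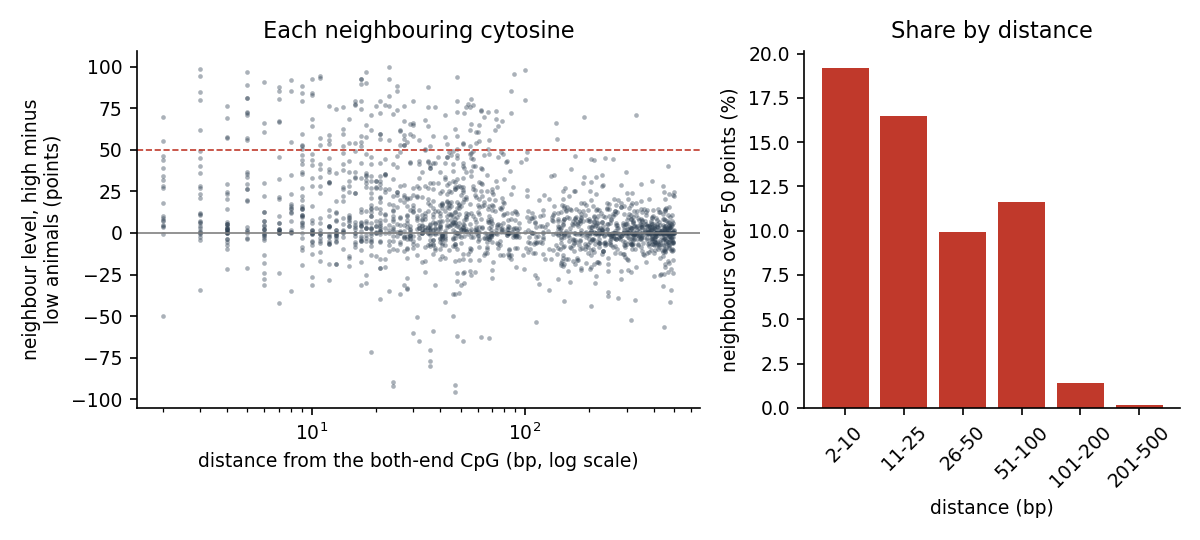
Left, level of each neighbouring cytosine in high minus low animals (y axis, points) against its distance from the both-end CpG (x axis, bp, log scale), with a dashed line at 50 points. Right, share of neighbours over 50 points (y axis, %) by distance. Most neighbours lie near 0, and the share over 50 points is 19.2% at 2 to 10 bp, 11.6% at 51 to 100 bp and 0.179% beyond 200 bp.

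Chained within 50 bp, the members formed 574 runs, of which 549 held 1 CpG, 23 held 2, 1 held 3 and 1 held 4. The 32 pairs within runs had a median Pearson r of 0.745 over the 18 to 22 animals read at both, with 15 above 0.8 and 2 below -0.8. These values are a description, and runs were chained without regard to strand. Pairs 1 bp apart in Abcg8 (r = 0.849) and on scaffold JH996428.1 (r = 0.842) were among them. Each may be the 2 strands of 1 CpG. The 2 levels of an animal were within 1 point of each other in 47.2% of 636 comparisons. Between members, an r beyond 0.8 in either direction was found for 53.1% of pairs within 50 bp, for 4 of 21 pairs at 1 to 10 kb, and for 0.0558% of 164943 pairs on different chromosomes.

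The longest run held 4 CpGs within Colec11, a collectin that binds microbial sugars and starts complement (LG3, 24807758 to 24807793). “Attacker” replicate 5, with 36 reads, was at 100% at all 4 CpGs, “Parental” replicate 6 had 19 of 20 reads methylated and “Father” replicate 4 had 28 of 29. “Father” replicates 2 and 3 and “Parental” replicate 3 had 0% throughout. “Mother” replicate 3 had 100%, 47.5%, 0% and 0% from the first to the last CpG, with 40 reads at each. Animals thus differed in the state of the whole run and some also within it.

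Near Sqle, the squalene epoxidase of sterol synthesis, 3 CpGs lay 66892 to 66922 bp from the gene (chromosome 15, 42570091 to 42570121). “Father” replicate 3 had 100% at all of them and “Attacker” replicate 4 had 0%. “Mother” replicate 1 had 7.69%, 92.3% and 100%. At a pair 3 bp apart on chromosome 1 (216456 and 216459), levels were within 1 point in 17 of 18 animals (r = 0.991). The exception was “Mother” replicate 1, with 0 and 13 of 59 reads. In Gltp, which transfers glycolipids between membranes, a pair 10 bp apart (chromosome 2, 4503246 and 4503256) matched within 1 point in 15 of 20 animals. “Father” replicate 5 was furthest apart, with 13 of 47 and 45 of 46 reads.

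Fry, a large microtubule-binding protein, held the most deeply read pair (chromosome 2, 31844802 and 31844819, 40 to 291 reads per animal). “Attacker” replicate 6 had 0 of 264 methylated reads and “Father” replicate 1 had 151 of 151 at both CpGs. “Mother” replicate 2 had 67 of 67 at the first and 13 of 67 at the second. Levels matched within 1 point in 13 of 22 animals (r = 0.806).

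A pair 24 bp apart near Ctso, which encodes the cysteine protease cathepsin O, ran in mirror image (chromosome 1, 122501421 and 122501445, 9280 and 9256 bp from the gene). The 3 “Parental” animals with 100% at the first CpG had 0% at the second, and “Attacker” replicates 3 and 4 had 0% at the first and 100% at the second. “Father” replicate 3 had 87 of 87 and then 0 of 87. In “Mother” replicate 2 they were 29.1% and 70.9%. The levels added up to 100% within 1 point in 12 of 20 animals (r = -0.953). A second such pair, 47 bp apart on chromosome 10 (60334458 and 60334505), added up in 13 of 18 animals (r = -0.950). Counts that mirrored each other in this way occurred at a neighbour for 3.66% of middle levels with a neighbour read in the animal, against 2.34% at other covered CpGs with a mean level of 20% to 80%.

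**Figure D3:**
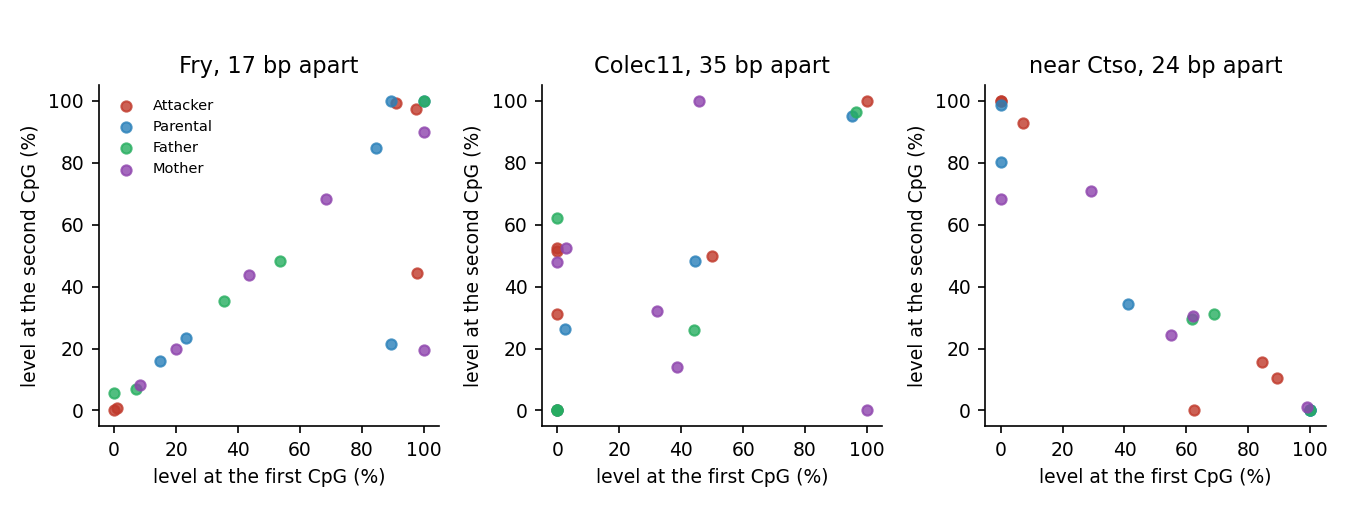
Methylation level (%) at 2 both-end CpGs of 1 run, one point an animal, coloured by group, in Fry (17 bp apart), Colec11 (35 bp apart) and near Ctso (24 bp apart). Most animals lie on the diagonal in Fry, many leave it in Colec11, and in the pair near Ctso they lie on the opposite diagonal (r = -0.953).

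Low and high animals were mixed over the groups. Both kinds occurred within all 4 groups at 59 of the 602 CpGs (9.80%), within at least 3 groups at 308 (51.2%), and within no group at 8. Within “Attacker” alone both occurred at 412, within “Parental” at 356, within “Father” at 326 and within “Mother” at 403. A pair of animals was in the same class at a median of 34.7% of the CpGs when both came from 1 group (55 pairs) and at 34.97% when they came from different groups (198 pairs). They were at opposite ends at 14.8% and 15.1%.

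Per animal, 430 to 571 of the CpGs had at least 20 reads. Of these, “Attacker” animals were low at 27.1% ± 7.46 (mean ± SD, n = 6) and high at 28.6% ± 4.89. For the “Parental” males the values were 26.2% ± 3.78 and 23.9% ± 4.08 (n = 6), for “Father” 28.2% ± 3.45 and 27.4% ± 3.06 (n = 5), and for “Mother” 27.3% ± 3.40 and 27.1% ± 3.53 (n = 6). The ranges of the groups overlapped in both. “Attacker” replicate 1, the library with the fewest methylated calls, had the highest low share with 39.7%. “Attacker” replicates 5 and 6, with 24.7% and 38.7% methylated calls, had the highest high shares with 35.3% and 34.2%. The part of the library-wide share of methylated calls in these values was not tested.

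**Figure D4:**
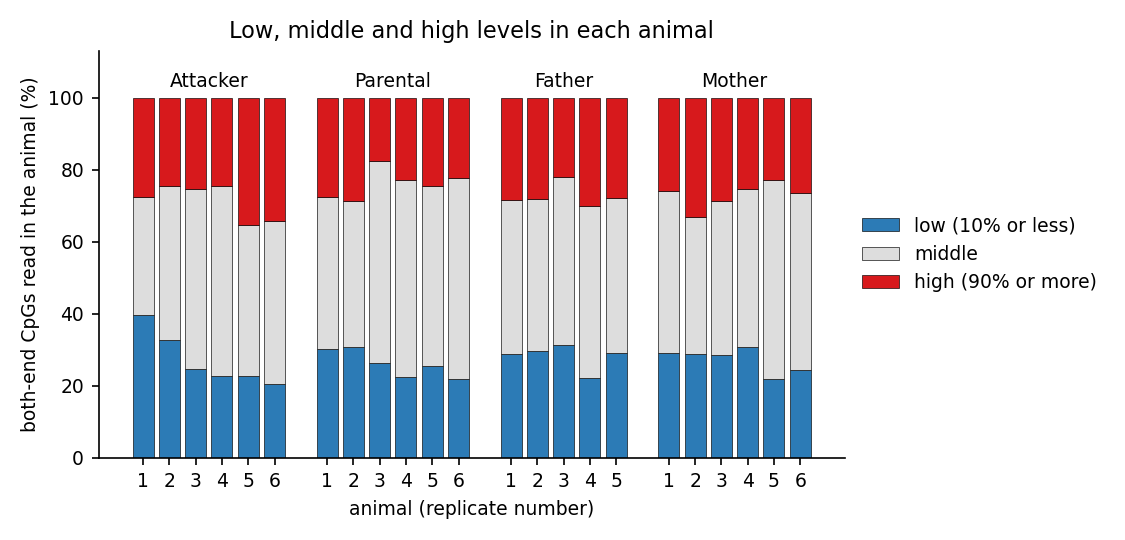
Share of the both-end CpGs (y axis, %) that were low, middle or high in each animal (x axis, replicate number, by group). The ranges of the 4 groups overlap. The low share runs from 20.5% to 39.7%, both in “Attacker” animals.

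Whether group separated the levels was tested with the beta-binomial test of DSS at all cytosines where each group had 4 or more animals of 10 or more reads. A CpG was called when the p-value, adjusted by Benjamini-Hochberg over all of them, was under 0.05 and the fitted difference over 15 points. The group was not used in choosing the CpGs. In “Attacker” vs “Parental”, the comparison of virgin males by their response to a pup, 0 of 597 both-end CpGs were called, against a background of 0.0181% of all cytosines tested. In “Attacker” vs “Father” 1 of 577 was called (background 0.0169%), in “Parental” vs “Father” 1 of 579 (background 0.0195%) and in “Father” vs “Mother” 3 of 579 (background 0.0553%). Among covered cytosines with a mean level of 20% to 80%, 0.0417%, 0.0572%, 0.0867% and 0.184% were called in the same order. The shares of the members rest on 0 to 3 calls and were not tested against these. At an unadjusted p under 0.05 there were 38, 49, 44 and 34 (6.37%, 8.49%, 7.60% and 5.87%), against 5.53%, 6.06%, 6.01% and 6.83% of cytosines with a mean level of 20% to 80%. With the probability score of DSS for a difference over 15 points under 0.05, unadjusted, 20, 23, 21 and 19 were called (3.35%, 3.99%, 3.63% and 3.28%), against 0.932%, 1.22%, 1.12% and 1.28% of those cytosines. The members were chosen for levels at both ends, and their median absolute fitted difference was 14.7 to 18.8 points over the comparisons. A higher share can therefore follow from the selection, and it was not tested against those cytosines. A linear model on arcsine levels with the animal as the unit called 0 in each comparison.

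The CpGs were also counted where the levels of the groups did not overlap, requiring 4 or more animals of 20 or more reads per group. This held for 4 of 558, 6 of 509, 5 of 515 and 4 of 511 in the same order of comparisons (0.717%, 1.18%, 0.971% and 0.783%). The background among covered cytosines with a mean level of 20% to 80% was 0.612%, 0.872%, 0.813% and 0.927%. Against CpGs of like mean level, the members were thus near the background in each comparison. Among them were CpGs in Aunip for “Attacker” vs “Parental”, in Ift43 for “Attacker” vs “Father”, and in Ptpn3 for “Parental” vs “Father” and “Father” vs “Mother”, which share the “Father” animals. Zfhx3 was another for “Father” vs “Mother”. These genes were picked after their values were seen, and none of these CpGs was called.

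In “Attacker” vs “Parental” the smallest p was at a CpG 233432 bp from the nearest gene (chromosome 6, 17901540). “Attacker” animals with at least 20 reads had 100%, 65.5%, 100% and 66.1%, and “Parental” animals had 45 of 60 reads methylated in replicate 2 and 0% in the other 4. One “Parental” animal lay among the “Attacker” levels and the others below. The fitted difference was 70.7 points (SE 16.4, adjusted p = 0.0782, DSS test). Without “Parental” replicate 2, “Attacker” replicate 4 or “Attacker” replicate 6 the adjusted p by DSS was 2.05e-08, 0.0281 and 0.00860. With each of the 9 other animals left out it was 0.0651 to 0.409, the highest without “Parental” replicate 1. The cytosine within 50 bp had a mean level of 93.6%.

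The CpG called in “Attacker” vs “Father” lay on scaffold JH996517.1 at 293398. “Attacker” levels were 0% at the lowest, 12.3% in the median and 51.9% at the highest (n = 6), and “Father” levels with at least 20 reads were 70.6%, 100% and 100%. The groups did not overlap, but only 3 “Father” animals had 20 reads. “Father” was higher by 68.8 points (SE 13.7, adjusted p = 0.00544, DSS test), and without “Attacker” replicate 1 the adjusted p by DSS was 0.0601. In the linear model it was 0.947. Without “Father” replicate 1, 2, 3 or 4 no DSS fit could be made, because each group needed 4 or more animals of 10 or more reads.

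In “Parental” vs “Father” the called CpG was read in all 23 animals (scaffold JH996431.1, 3587962). “Parental” levels ran from 54.4% over a median of 71.6% to 100% (n = 6), and “Father” levels were 0%, 0.826%, 0%, 0% and 41.3%. The groups did not overlap, and “Attacker” and “Mother” animals reached from 0% and 9.72% to 100%. The fitted difference was 66.0 points (SE 14.3, adjusted p = 0.0276, DSS test). Its neighbour had a mean level of 97.5% and differed by 4.80 points between high and low animals. The call was lost without “Parental” replicate 2 (0.0625), 4 (0.0622) or 5 (0.257), and without “Father” replicate 1 (0.0953), 2 (0.358), 3 (0.0886) or 4 (0.122), each an adjusted p by DSS.

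For “Father” vs “Mother”, pair-bonded animals of different sex, the CpG with the smallest p lay 110568 bp from Smarca2, an ATPase of the SWI/SNF complex that moves nucleosomes (chromosome 8, 55767017). “Father” levels were 100%, 100%, 65.2%, 86.7% and 78.1%, and “Mother” levels ran from 0% over 30.1% to 40.9% (n = 6). The groups did not overlap, with 69 to 164 reads in each of these animals. The fitted difference was 61.8 points (SE 13.5, adjusted p = 0.0128, DSS test), and without “Father” replicate 4 the adjusted p by DSS was 0.0594. “Attacker” animals lay between 0% and 50.2% and “Parental” animals between 10.4% and 100%. The “Attacker” and “Father” levels did not overlap here either, in a comparison that shares the “Father” animals. The neighbouring cytosine had a mean level of 94.0% and differed by 7.81 points.

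On scaffold JH996480.1 (419783) “Father” levels were 0% in 4 animals and 1.89% in 1, while “Mother” levels were 100%, 100%, 70.3%, 0% and 85.8%. All “Father” animals were low, and “Mother” replicate 4 was with them. “Mother” was higher by 70.9 points (SE 15.7, adjusted p = 0.0167, DSS test). The call was lost without “Mother” replicate 1 (0.221), 2 (0.183), 3 (0.155), 5 (0.278) or 6 (0.104), each an adjusted p by DSS. On scaffold JH996513.1 (304) “Father” levels were 55.7%, 0%, 8.93%, 36.3% and 30.8%, and “Mother” levels were 100%, 100%, 55.2% and 100%. The lowest “Mother” animal lay just below the highest “Father” animal and the others above it. “Mother” was higher by 62.2 points (SE 14.8, adjusted p = 0.0490, DSS test). The call was lost without “Father” replicate 2 (0.0674), 3 (0.391), 4 (0.0802) or 5 (0.124) or “Mother” replicate 1 (0.0922), each an adjusted p by DSS. Over all alternatives that could be fitted, the call was lost in 9 and kept in 4. The losses were not only from animals left out or linear models. They also came with DSS settings changed and every animal kept. “Mother” replicate 1 had only 1 read at this CpG, and “Mother” replicate 4 had 0. Without “Mother” replicate 2, 3, 5 or 6 no DSS fit could be made, because each group needed 4 or more animals of 10 or more reads. In the linear model the 5 called CpGs had adjusted p-values from 0.906 to 1.00.

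**Figure D5:**
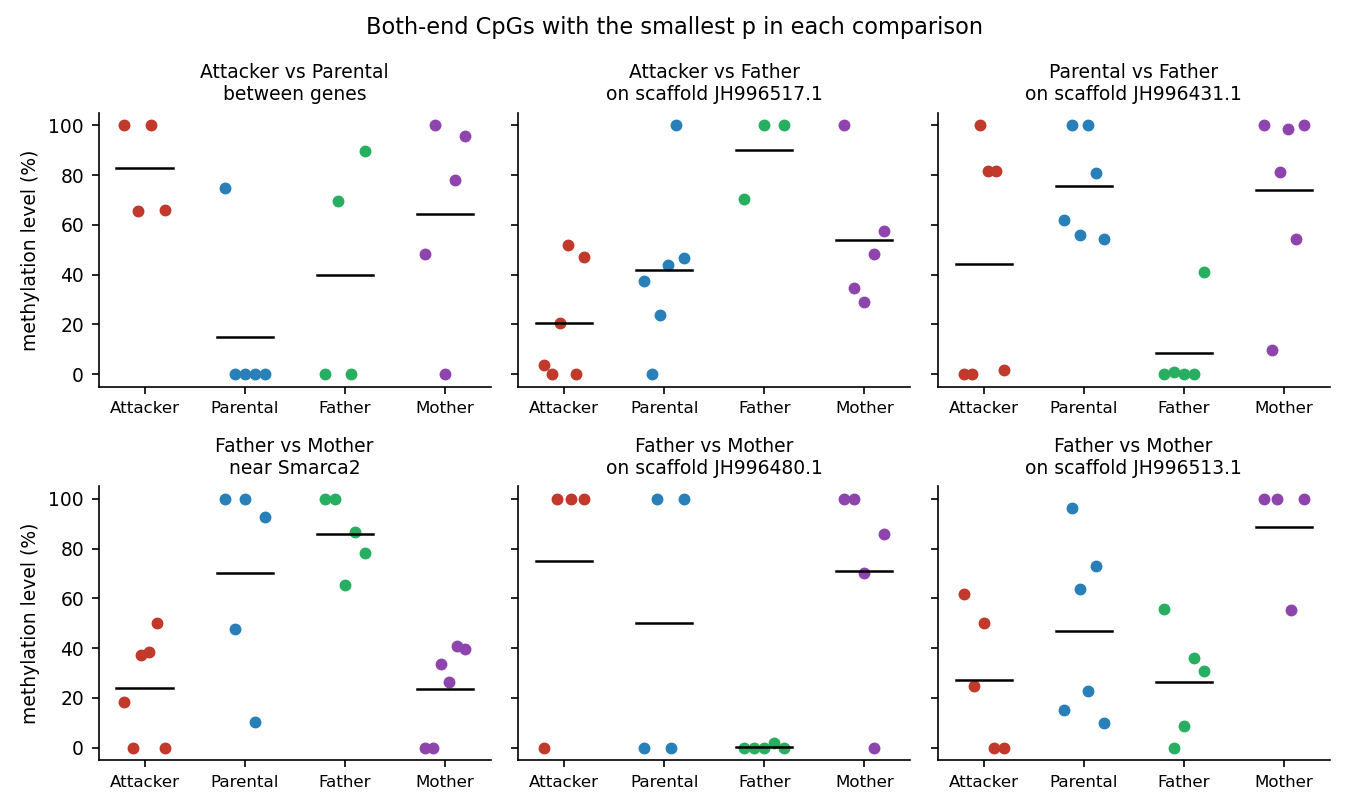
Methylation level (y axis, %) of each animal with at least 20 reads, by group (x axis), at the both-end CpG with the smallest p or the called CpGs of each comparison named above the panel; bars are group means. The compared groups do not overlap on scaffolds JH996517.1 and JH996431.1 and near Smarca2, and in the other panels 1 animal lies among those of the compared group.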

How the data were processed

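The authors used Trim Galore and then Bismark on the MicOch1.0 assembly, and the deposited values of each of the 23 animals are counts of reads and of methylated reads at each CpG cytosine, without normalization and with strands apart. These counts were used as deposited. Levels are methylated reads divided by reads, with Wilson 95% intervals. The Wald test of DSS for 2 groups (beta-binomial) was re-implemented without smoothing, adding 0.5 to the methylated reads and 1 to the reads of a group, and fitted on the animals of the compared groups wherever each group had 4 or more animals of 10 or more reads. Tests were tried on simulated data. The alternative linear model used limma 3.58.1 (R 4.3.3) to moderate variances. Fits used numba 0.67.0 and numpy 2.4.6 under Python 3.11.15, tables pandas 2.3.3, and figures matplotlib 3.10.9. Gene spans came from a RefSeq table of MicOch1.0.

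The both-end CpGs and gene lists were chosen with earlier results of these data known. CpGs named are the 6 longest runs, up to 3 per comparison by adjusted p among called CpGs whose groups do not overlap (otherwise the smallest p), the 12 genes with the fewest middle animals, and members at list genes. The other called CpGs are named too. One item that the rule names is not reported here. Sequences are not shown, because no genome sequence was used here. Animals are the units, with 1 library each. The DSS test shrinks the spread between animals at a CpG towards that of other cytosines in the group. Its p-values therefore do not measure only the spread seen at that CpG. The variances of the linear model are moderated over cytosines too. Alternatives covered the thresholds, depth, strands, the test and each animal left out.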

Additional observations from a re-analysis of the deposited data

Results flagged for a closer look

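In each group the gap between the most extreme animal and its nearest neighbour was compared with the group's range by Dixon's criterion, for 6 measures in 4 groups (24 in all, of which chance flags about 1 in 20). “Attacker” replicate 1 had at least 20 reads at only 469 both-end CpGs, against 519 to 535 in the other “Attacker” animals. “Father” replicate 2 had them at 495, against 533 to 543. “Father” replicate 4 had a low share of 22.3%, against 28.7% to 31.2% in the other “Father” animals. “Father” replicate 3 had a high share of 22.2%, against 27.96% to 30.2%.

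Chromosome X was outside the selection. Of its 3420 covered cytosines 7 (0.205%) met the other conditions, against 0.0802% off the X. At these 7, 57.5% of the levels were middle in “Mother”, the females, and 30.5% in the males.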

How the results depend on the processing

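The number of both-end CpGs (602) was 411 with ends at 5% and 95%, 659 with strands summed, 600 without the deepest 1% of cytosines and 402 to 440 without 1 animal. The number was 1819 with ends at 20% and 80%, 1975 with at least 3 and 172 with at least 5 animals at each end. With at least 10 reads it was 9138 and with at least 30 reads 152, where the minimum also sets which cytosines are covered. With 20 reads in all 23 animals it was 51. The share of middle levels at 40% to 60% was 26.6% with at least 30 reads, 44.6% for the wider band of 35% to 65%, and 30.04% to 30.6% without 1 animal. The share of other-strand cytosines over 50 points was 43.8% to 75% without 1 animal, the highest without “Mother” replicate 2. The share of neighbours over 50 points was 5.95% with at least 30 reads and 11.6% to 15.6% without 1 animal, and 31.4% differed by over 25 points. The causes were not tested.

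With the probability score under 0.05 and no adjustment, 20 both-end CpGs were called in “Attacker” vs “Parental”, 23 were in “Attacker” vs “Father”, 21 when “Parental” was compared with “Father”, and 19 in “Father” vs “Mother”. With at least 20 reads in 4 animals of each group the CpG of “Attacker” vs “Father” could not be fitted and 0 were called. The linear model called 0 in every comparison, and 0 with the replicate block. Deviations from the group mean of same-numbered animals correlated at -0.0246 to 0.0728 over 48147 cytosines. In that order of comparisons, 5 of 12, 1 of 10, 2 of 10 and 1 of 10 animals correlated best with their own number. A shift of an animal over all cytosines does not enter these correlations. Replicate 1 had the lowest share of methylated calls in each group (8.34%, 10.4%, 10.6% and 10.6% in “Attacker”, “Parental”, “Father” and “Mother”). Whether replicate numbers stand for something shared was not tested.

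Without 1 animal, 0 to 2 were called in “Attacker” vs “Parental” (1 or 2 without “Attacker” replicate 1, 2, 3, 4 or 6 or “Parental” replicate 2, 3 or 4), and 0 to 4 in “Attacker” vs “Father” (0 without “Father” replicate 1 or 4, 2 to 4 without “Attacker” replicate 3 or 5 or “Father” replicate 3 or 5). In “Parental” vs “Father” 0 to 6 were called (0 without “Parental” replicate 2, 2 to 6 without “Parental” replicate 1, 5 or 6 or “Father” replicate 3 or 5), and in “Father” vs “Mother” 2 to 6 (5 or 6 without “Father” replicate 2 or 5). No fitted difference at the 6 CpGs named in the comparisons changed sign.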
